A study of Homo sapiens with 3 samples.

Results

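The tight junction genes examined here were 3 claudins (CLDN1, CLDN4 and CLDN7), the junctional adhesion molecule F11R, the MARVEL domain proteins OCLN and MARVELD2, and the scaffolds TJP1, TJP3 and CGN. They were picked by symbol from the deposited tables and make up 9 of the 19220 genes of the count table. All 9 passed a filter of at least 10 counts on average over the libraries, as did 13676 genes in all, which are called the tested genes. CAL27 is a human oral squamous cell carcinoma (OSCC) cell line, and RNA-seq libraries of CAL27 and of 2 drug-resistant derivatives were compared. The parental CAL27 cells, labelled as WT, grew in drug-free medium. CAL27/5FU cells are 5-fluorouracil resistant and were kept in medium with 10 μM 5FU, an antimetabolite that inhibits thymidylate synthase. CAL27/OXA cells are oxaliplatin resistant and were kept in medium with 10 μM OXA, a platinum compound that damages DNA. CAL27/5FU was derived from CAL27 by raising the 5FU concentration stepwise, and whether either resistant line goes back to a single clone is not given in the sources used here. Each resistant line was kept in its drug and the parental line was not, so that resistance and the presence of the drug cannot be told apart.

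Tight junctions seal the space between neighbouring epithelial cells near their apical side and separate the apical from the basolateral membrane. Claudins form the sealing strands in the membrane, OCLN and MARVELD2 lie within or at the ends of these strands, and scaffolds of the zonula occludens family bind the tails of the membrane proteins and link them to actin. In stratified squamous epithelium such as the oral mucosa, these junctions sit in the upper layers, while desmosomes hold the cells together throughout.

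Only 1 library per line was used. The differences therefore lack replicates, and p-values are not given. The libraries held 37297713 to 43455488 counts. Counts were scaled with TMM factors to CPM, a level relative to the scaled library total. Lines were compared by the log2 ratio of these scaled counts, with a 95% interval (exact, Clopper-Pearson) computed from both counts. The threshold for calling a gene higher or lower was a 2-fold ratio. The intervals, and the floor of 3 counts under which a gene cannot be told from 0, cover counting error only. Levels of different genes are compared in FPKM, which takes gene length into account. The epithelial label was checked on 8 squamous epithelial markers, which had between 24.2 and 7345 CPM in every library. Summed over these markers, CAL27 had 14543 CPM, CAL27/5FU 3430 CPM and CAL27/OXA 4850 CPM, with 6 of 8 markers more than 2-fold lower in CAL27/5FU and 4 of 8 in CAL27/OXA. The pan-leukocyte marker PTPRC had 2 counts in CAL27 and 0 in both resistant libraries, which allows up to 3 counts there. The summed level of 4 immune markers was 7.92 to 33.2 CPM, nearly all of it CD14, and that of 5 fibroblast markers was 41.0 to 48.4 CPM. Of the 3 fibroblast markers that passed the filter, LUM (120, 414 and 877 counts in CAL27, CAL27/5FU and CAL27/OXA) and COL1A2 (90, 300 and 212 counts) were more than 2-fold higher in both resistant lines, COL1A1 had 1387, 1068 and 1050 counts, and DCN and PDGFRA had 8 counts or fewer. The part of the squamous, immune and fibroblast markers in the results that follow was not tested. Fewer cells of a type and less RNA per cell cannot be told apart in these bulk libraries.

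In CAL27/5FU cells, CLDN4 was the 1 tight junction gene past 2-fold, and it was lower. In CAL27/OXA cells, CLDN4, CGN and TJP3 were past 2-fold, and all 3 were lower. No tight junction gene of the 9 was more than 2-fold higher in either line. Of all tested genes, 6.72% were called lower and 8.46% higher in CAL27/5FU, 15.2% in all. In CAL27/OXA, 9.28% were called lower and 6.54% higher, 15.8% in all. The same members passed when the whole interval had to lie past 2-fold, a rule that called 4.34% of tested genes lower and 5.48% higher in CAL27/5FU, and 6.32% lower and 3.85% higher in CAL27/OXA. The median log2 ratio of the 9 genes was -0.30 in CAL27/5FU and -0.41 in CAL27/OXA, against -0.0035 and 0.0055 over all tested genes. Scaling by total counts put the CAL27/5FU median at -0.13, with that of all tested genes at 0.17. In CAL27/5FU, 6 of the 9 intervals lay wholly below 0 and 3 wholly above it. In CAL27/OXA, 6 lay below 0, 2 above it and 1 spanned it. The share of all tested genes with intervals clear of 0 was not computed. These intervals were computed under TMM scaling, and total counts put TJP3 in CAL27/5FU at -0.13 in place of -0.30. Both comparisons share the CAL27 library, so their values are set side by side and do not support each other.

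**Figure D1:**
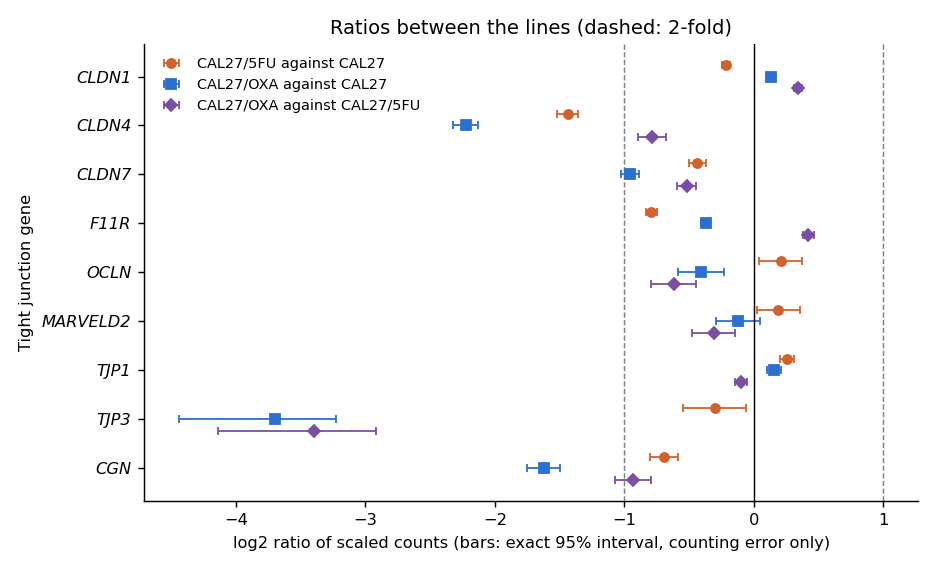
Log2 ratios of scaled counts (horizontal axis) of the 9 tight junction genes for CAL27/5FU against CAL27, CAL27/OXA against CAL27 and CAL27/OXA against CAL27/5FU, with 1 library per line; bars are exact 95% intervals that cover counting error only, and dashed lines mark 2-fold. CLDN4 lies past 2-fold in both resistant lines, CGN and TJP3 in CAL27/OXA, and the other genes lie within 2-fold of CAL27.

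Within each library the 9 genes spanned a wide range of levels. CLDN1 had the highest level in every library, with 124 FPKM in CAL27 against 121 FPKM in CAL27/5FU and 149 FPKM in CAL27/OXA. Its level in CAL27 was above 96.1% of the tested genes. In CAL27 the next genes were F11R with 63.6 FPKM, CLDN7 with 60.9 FPKM and CLDN4 with 58.9 FPKM. The levels of CLDN7 and CLDN4 did not differ there beyond counting error, at a ratio of 1.03 with an interval of 0.991 to 1.08. TJP1 had 16.9 FPKM, CGN 8.52 FPKM and MARVELD2 6.10 FPKM. TJP3 and OCLN were lowest, with 2.44 and 2.22 FPKM, which also did not differ beyond counting error (ratio 1.10, interval 0.953 to 1.26). In both resistant libraries every pair of neighbours in the order was separated beyond counting error. In CAL27/5FU, CLDN7 stood above F11R at a ratio of 1.22 (interval 1.18 to 1.28), the reverse of their order in CAL27. CLDN4 stood just above TJP1 in CAL27/5FU (24.5 against 22.7 FPKM) and below it in CAL27/OXA (13.8 against 20.7 FPKM). MARVELD2 was above CGN in both resistant libraries, by 1.32 and 2.03 times, whereas CGN was above MARVELD2 by 1.40 times in CAL27. TJP3 was the lowest gene in both resistant libraries.

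**Figure D2:**
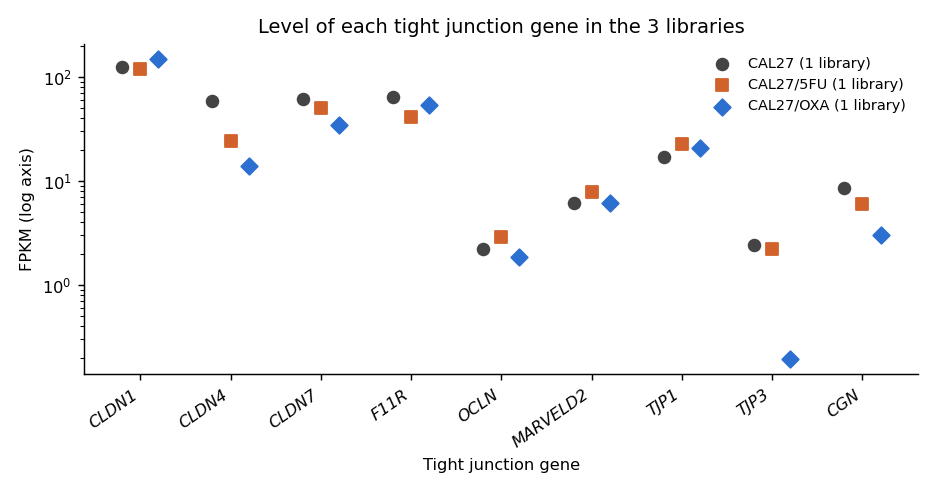
Level in FPKM (vertical log axis) of each of the 9 tight junction genes in the libraries of CAL27, CAL27/5FU and CAL27/OXA, 1 point per library. CLDN1 is the highest gene in every library, CLDN4 and CGN step down from CAL27 to CAL27/5FU to CAL27/OXA, and TJP3 drops to 0.192 FPKM in CAL27/OXA.

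Among CLDN1, CLDN4 and CLDN7, only CLDN4 was past 2-fold in either resistant line. CLDN4, a barrier-forming claudin that is also a receptor for the Clostridium perfringens enterotoxin, is annotated on the plus strand of chromosome 7 of GRCh38 from 73799542 to 73832693. It had 4510 counts in the parental library, 1672 in CAL27/5FU and 1101 in CAL27/OXA, which is 116, 42.7 and 24.8 CPM. Parental cells had the highest value and CAL27/OXA cells the lowest. The log2 ratio to CAL27 was -1.44 (interval -1.52 to -1.36) in CAL27/5FU, a fall of 2.71-fold, and -2.22 (-2.32 to -2.13) in CAL27/OXA, a fall of 4.66-fold. Directly between the resistant lines, CLDN4 was at -0.78 (-0.90 to -0.67) in CAL27/OXA relative to CAL27/5FU.

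CLDN7, a claudin found along the lateral membrane as well as in the junction, lies on the minus strand of chromosome 17 from 7259903 to 7263983. Its counts were 4560 in CAL27, 3387 in CAL27/5FU cells and 2682 in CAL27/OXA (117, 86.5 and 60.4 CPM). These values had the same order as those of CLDN4 with smaller steps. The log2 ratio was -0.44 (-0.50 to -0.37) in CAL27/5FU and -0.95 (-1.02 to -0.89) in CAL27/OXA, so that the interval of the latter reached past 2-fold while the ratio did not. The annotated gene shares 38 bases with ELP5 on the opposite strand and 2187 bases with the protein-coding gene AC003688.1 on its own strand, and the strandedness of the counting is not given in the sources used here.

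CLDN1, a claudin without which the skin barrier fails in mice, lies on the minus strand of chromosome 3 from 190305701 to 190322475. It had 17917 counts in CAL27 against 15543 in CAL27/5FU and 22369 in CAL27/OXA (460, 397 and 504 CPM). The 5FU-resistant library was thus the lowest and the OXA-resistant library the highest. The log2 ratios were -0.21 (-0.24 to -0.18) and 0.13 (0.10 to 0.16), far within 2-fold in both.

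A share within a library does not depend on the scaling between libraries, so the claudins were also compared as shares of the summed FPKM of 24 claudin genes. This sum was 281 FPKM in the parental library, 244 FPKM in CAL27/5FU and 238 FPKM in CAL27/OXA. CLDN1, CLDN4 and CLDN7 together made up 86.7% of it in CAL27, 80.4% in CAL27/5FU cells and 83.0% in CAL27/OXA. CLDN1 alone had 44.1%, 49.6% and 62.7%. The share of CLDN4 was 20.9% in CAL27 against 10.1% in CAL27/5FU and 5.82% in CAL27/OXA, and that of CLDN7 was 21.6%, 20.8% and 14.5%. The parental library therefore held 2.11 times as much CLDN1 as CLDN4 per length, the CAL27/5FU library 4.93 times and the CAL27/OXA library 10.8 times. CLDN12, a claudin without the usual binding motif for scaffold proteins at its end, had 10.1%, 14.0% and 11.5%. It was the highest claudin outside CLDN1, CLDN4 and CLDN7, and it stood above CLDN4 in both resistant libraries. The other 20 claudins made up 3.24% to 5.62%, and 8 to 11 of the 24 genes were at or under the floor of 3 counts.

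**Figure D3:**
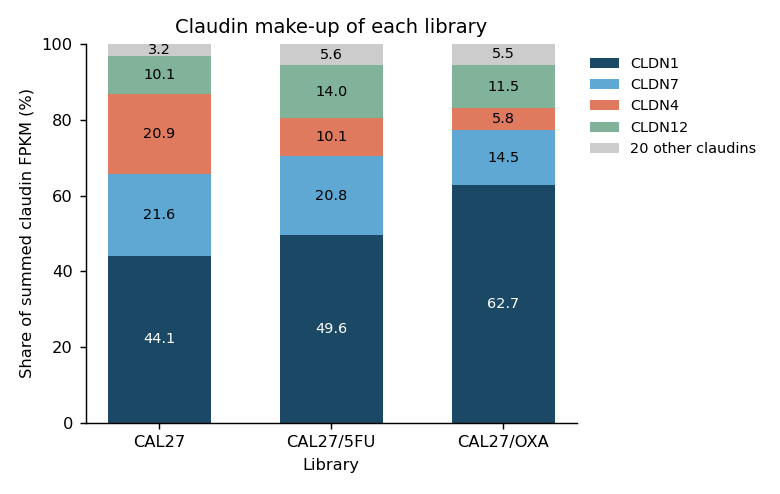
Share of each claudin in the summed claudin FPKM (vertical axis, percent) of the libraries of CAL27, CAL27/5FU and CAL27/OXA, 1 bar per library, with 20 minor claudins pooled. The CLDN4 segment shrinks from 20.9% in CAL27 to 5.82% in CAL27/OXA while the CLDN1 segment goes from 44.1% to 62.7%.

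F11R encodes JAM-A, an immunoglobulin-like adhesion molecule that recruits polarity proteins to the forming junction. The gene lies on the minus strand of chromosome 1 from 160995211 to 161021348. It had 12650 counts in the parental library, 7345 in CAL27/5FU and 11152 in CAL27/OXA (325, 188 and 251 CPM). Parental cells were highest and CAL27/5FU cells lowest. The log2 ratio was -0.79 (-0.83 to -0.75) in CAL27/5FU and -0.37 (-0.41 to -0.33) in CAL27/OXA. F11R and CLDN1 were the 2 genes with a positive ratio of CAL27/OXA to CAL27/5FU, at 0.42 and 0.34. Another annotated protein-coding gene, AL591806.3, covers 23392 bases of F11R on the same strand and has no row in the count table, and how its reads were assigned is not given in the sources used here.

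OCLN encodes occludin, and MARVELD2 encodes tricellulin, which marks the points where 3 cells meet. They are close neighbours on the plus strand of chromosome 5, MARVELD2 from 69415065 to 69444330 and OCLN from 69492292 to 69558104. OCLN had 559 counts in CAL27, 649 in CAL27/5FU cells and 480 in CAL27/OXA (14.4, 16.6 and 10.8 CPM). Its log2 ratio was 0.21 (0.04 to 0.37) in CAL27/5FU and -0.41 (-0.59 to -0.23) in CAL27/OXA. OCLN has an annotated unprocessed pseudogene, OCLNP1, on the same chromosome, so that its counts are uncertain where reads match both copies. MARVELD2 had 546 counts in CAL27 against 626 in CAL27/5FU and 573 in CAL27/OXA (14.0, 16.0 and 12.9 CPM). Its log2 ratio was 0.19 (0.02 to 0.36) in CAL27/5FU and -0.12 (-0.29 to 0.05) in CAL27/OXA, where the interval spanned 0 and the sign turned to 0.01 under scaling by total counts. In CPM, CAL27/5FU was for both genes the highest library and CAL27/OXA the lowest, all within 2-fold.

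The scaffolds diverged from each other. TJP1 encodes ZO-1, which binds claudins and occludin and links them to actin, and lies on the minus strand of chromosome 15 from 29699367 to 29968865. It had 5510 counts in the parental library, 6608 in CAL27/5FU and 7002 in CAL27/OXA (141, 169 and 158 CPM). Both resistant libraries were above CAL27, with log2 ratios of 0.26 (0.20 to 0.31) and 0.16 (0.11 to 0.21). TJP1 was the 1 gene of the 9 with intervals above 0 in both resistant lines.

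TJP3 encodes ZO-3, the family member most confined to epithelia, and lies on the plus strand of chromosome 19 from 3708109 to 3750813. It had 318 counts in CAL27, 259 in CAL27/5FU cells and 26 in CAL27/OXA (8.16, 6.62 and 0.585 CPM). The CAL27 and CAL27/5FU libraries were close to each other, and the CAL27/OXA library was far below both. The log2 ratio was -0.30 (-0.55 to -0.06) in CAL27/5FU and -3.69 (-4.44 to -3.22) in CAL27/OXA, a fall of 12.9-fold. It was also the 1 gene of the 9 past 2-fold between the resistant lines, at -3.39 (-4.14 to -2.91) in CAL27/OXA relative to CAL27/5FU. In that comparison 8.38% of tested genes were called lower and 4.18% higher (12.6% in all), 5.18% and 2.33% by the whole interval, and the median of the 9 genes was -0.52 against 0.0079 over all tested genes. The size of the TJP3 differences depended on the offset added to low values. FPKM values with a pseudocount of 1 gave TJP3 at -1.53 for CAL27/OXA against CAL27 and at -1.44 for CAL27/OXA against CAL27/5FU. Per length, TJP1 exceeded TJP3 by 6.93 times in CAL27, by 10.2 times in CAL27/5FU and by 108 times in CAL27/OXA.

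CGN encodes cingulin, a cytoplasmic protein that binds ZO-1 and connects the junction to the cytoskeleton and to regulators of RhoA. It lies on the plus strand of chromosome 1 from 151510510 to 151538692. It had 1817 counts in CAL27 against 1131 in CAL27/5FU and 673 in CAL27/OXA (46.6, 28.9 and 15.2 CPM). As for CLDN4, parental cells were highest and CAL27/OXA cells lowest. The log2 ratio was -0.69 (-0.80 to -0.58) in CAL27/5FU and -1.62 (-1.75 to -1.49) in CAL27/OXA, a fall of 3.07-fold, and CAL27/OXA was at -0.93 (-1.07 to -0.79) relative to CAL27/5FU.

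Promoter stretches are printed for TJP1 and CGN, scaffolds that bind each other and had ratios of opposite sign in both resistant lines. Only stretches free of annotated exons were considered for printing, which left out those of CLDN4 and TJP3. The stretches are the 250 bases before the start of transcription in RefSeq (GRCh38.p14), 5′ to 3′ on the strand of the gene, and neither overlaps an exon of GENCODE 29. The TJP1 stretch lies outside the gene as GENCODE draws it, and the CGN stretch lies in an intron of the GENCODE gene, whose annotated start is farther upstream. Capitals mark the E-box CACCTG or its reverse complement CAGGTG, a motif that repressors of the SNAI and ZEB families are known to bind.
TJP1, chr15:29969050-29969299, minus strand: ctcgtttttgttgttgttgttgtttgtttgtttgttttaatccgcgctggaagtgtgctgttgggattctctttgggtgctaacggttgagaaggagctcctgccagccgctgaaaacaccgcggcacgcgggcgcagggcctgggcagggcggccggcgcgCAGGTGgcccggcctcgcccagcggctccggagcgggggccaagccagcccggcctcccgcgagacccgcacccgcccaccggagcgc
CGN, chr1:151511137-151511386, plus strand: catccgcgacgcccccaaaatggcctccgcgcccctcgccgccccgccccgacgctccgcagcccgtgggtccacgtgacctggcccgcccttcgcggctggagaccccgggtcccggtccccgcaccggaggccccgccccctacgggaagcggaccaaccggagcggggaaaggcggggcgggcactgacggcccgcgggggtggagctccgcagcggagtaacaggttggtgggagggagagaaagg
This TJP1 stretch held 1 match, which began 88 bases before its start, and the CGN stretch held none. TJP1 has 4 starts in RefSeq, and the windows of the other 3 held no match. Of those, the stretch at chr15:29820675-29820924 was also free of annotated exons. So was a CLDN7 stretch without a match (chr17:7263214-7263463), and neither is printed. RefSeq windows of 300 bases (250 before and 50 after a start) were found for 8 of the 9 genes, F11R being the exception, and some genes had several starts, which gave 14 windows. Of these, 5 windows of 4 genes (CLDN7, OCLN, TJP1 and TJP3) held the motif on either strand, or 35.7%, against 20.6% of all 35116 windows and 19.4% of those of tested genes. The windows of CLDN4, CGN, CLDN1 and MARVELD2 held none. Of the 3 genes called lower in CAL27/OXA, TJP3 had a match and CLDN4 and CGN had none. A match is a string of letters and was not tested for binding.

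The position of the 9 genes was compared with the ratios of their neighbours, the 5 nearest tested genes on each side. In no case was the median of these 10 neighbours past 1.5-fold in any of the 3 comparisons. Around TJP3 the neighbours had a median log2 ratio of 0.17 in CAL27/OXA and ranged from -0.43 to 0.61, while TJP3 itself was at -3.69. Around CGN they had -0.14, with a range of -0.68 to 0.26, and around CLDN4 they had 0.05, with a range of -0.84 to 0.89. With 10 neighbours on each side, the range around CGN in CAL27/OXA reached down to -2.60, so that CGN lay inside it. TJP3 and CLDN4 stayed below the range of theirs. In CAL27/5FU the neighbours of CLDN4 had a median of -0.45, and 3 of the 10 were more than 2-fold lower, among them VPS37D at -2.71 and CLDN3, the adjacent claudin, at -1.45 with 25 counts in CAL27 and 8 in CAL27/5FU. The neighbours of F11R had medians of -0.40 in CAL27/5FU and -0.41 in CAL27/OXA, where F11R itself was at -0.79 and -0.37. With 3 neighbours on each side, the median around F11R in CAL27/5FU was -0.70, which is past 1.5-fold. OCLN and MARVELD2 lie so close that they share most of their neighbours.

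**Figure D4:**
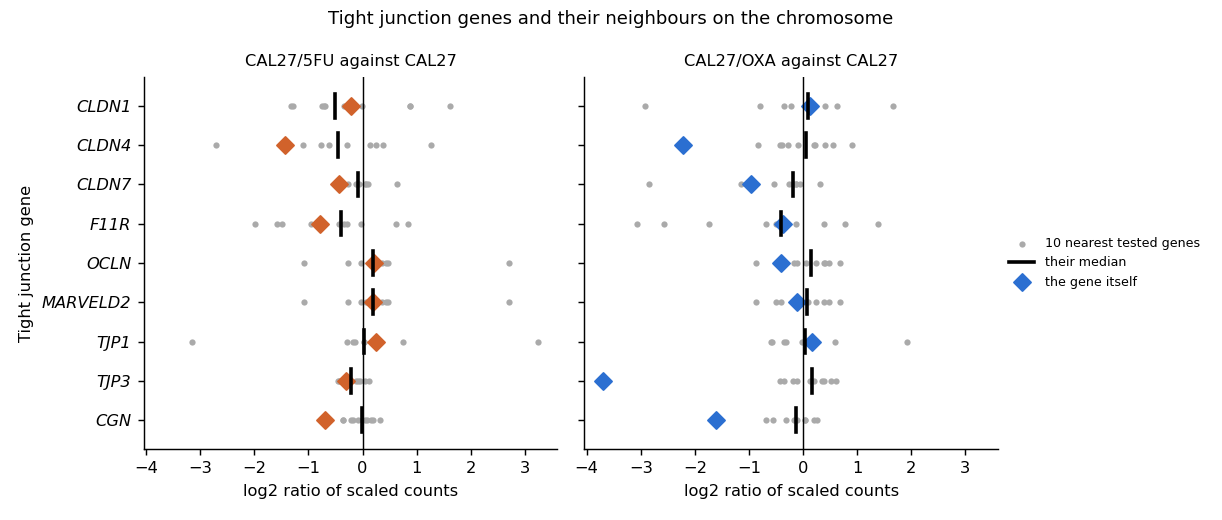
Log2 ratios of scaled counts (horizontal axis) of each tight junction gene and of its 10 nearest tested genes on the chromosome, for CAL27/5FU against CAL27 and CAL27/OXA against CAL27. In CAL27/OXA, TJP3 at -3.69, CLDN4 at -2.22 and CGN at -1.62 lie outside the range of these neighbours, 5 on each side. With 10 on each side, not shown, CGN lies inside the range.

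The other genes of the pathway were taken from 3 lists with 63 genes, of which 49 passed the filter on low counts. Past 2-fold, 8 of the 49 were higher and 3 lower in CAL27/5FU, and 6 were higher and 4 lower in CAL27/OXA. The shares over all tested genes, for these and for the lists below, were 8.46% higher and 6.72% lower in CAL27/5FU. In CAL27/OXA they were 6.54% higher and 9.28% lower. Scaling by total counts gave 10 higher and 1 lower gene in CAL27/5FU. The same scaling moved the median of all tested genes to 0.17 in CAL27/5FU and to 0.14 in CAL27/OXA, and the counts over all tested genes from 1157 higher and 919 lower to 1432 and 699 in CAL27/5FU. The median log2 ratio of the 49 genes was 0.0013 in CAL27/5FU and 0.09 in CAL27/OXA. With the whole interval past 2-fold, 2 were higher and none lower in CAL27/5FU, and 5 were higher and 3 lower in CAL27/OXA. By that rule, 5.48% of tested genes were higher and 4.34% lower in CAL27/5FU, and 3.85% and 6.32% in CAL27/OXA.

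Among the 9 tested claudins outside the main set, 2 were higher and 1 was lower in CAL27/5FU, and 1 was higher and 1 lower in CAL27/OXA. CLDN9 fell in CAL27/OXA, from 105 counts in CAL27 to 12, a log2 ratio of -3.10 (-4.32 to -2.45), and had 66 counts in CAL27/5FU. CLDN5, best known from endothelium, had 2 counts in the parental library, 8 in CAL27/5FU and 31 in CAL27/OXA, a log2 ratio of 2.90 (1.79 to 6.87) in the last. CLDN9 and CLDN5 were chosen with their values already seen. CLDN5 also stands among the 4 endothelial markers. In the same order of libraries, the others had 13, 6 and 11 counts (PECAM1), 44, 19 and 29 counts (VWF) and 43, 338 and 163 counts (CDH5), and the summed level of all 4 was 2.62, 9.48 and 5.27 CPM. The part of endothelial transcripts in the CLDN5 values was not tested.

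Of 11 tested membrane proteins outside the claudins, 4 were higher and none was lower in CAL27/5FU, and 3 were higher and 1 was lower in CAL27/OXA. The angulins, which bring tricellulin to the contacts of 3 cells, did not change together. ILDR1 had 194 counts in CAL27, 121 in CAL27/5FU cells and 44 in CAL27/OXA, a log2 ratio of -2.27 (-2.84 to -1.85) in the last. ILDR2 had 35, 136 and 383 counts and rose in both lines, with 1.89 (1.41 to 2.53) and 3.19 (2.76 to 3.81). LSR, by far the most abundant angulin, had 75.4 FPKM in CAL27 against 82.0 FPKM in CAL27/5FU and 62.7 FPKM in CAL27/OXA. Its log2 ratios of scaled counts were -0.05 and -0.40. FPKM values are scaled by total counts alone, and for CAL27/5FU these measures differed in direction. LSR was chosen with its values already seen.

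Of 29 tested scaffolds and polarity proteins, 25 were within 2-fold in CAL27/5FU and 25 in CAL27/OXA, with 2 higher and 2 lower in each line. PARD6A, a subunit of the apical polarity complex with PARD3 and atypical protein kinase C, had 74, 255 and 183 counts and log2 ratios of 1.75 (1.40 to 2.17) and 1.10 (0.72 to 1.53).

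**Figure D5:**
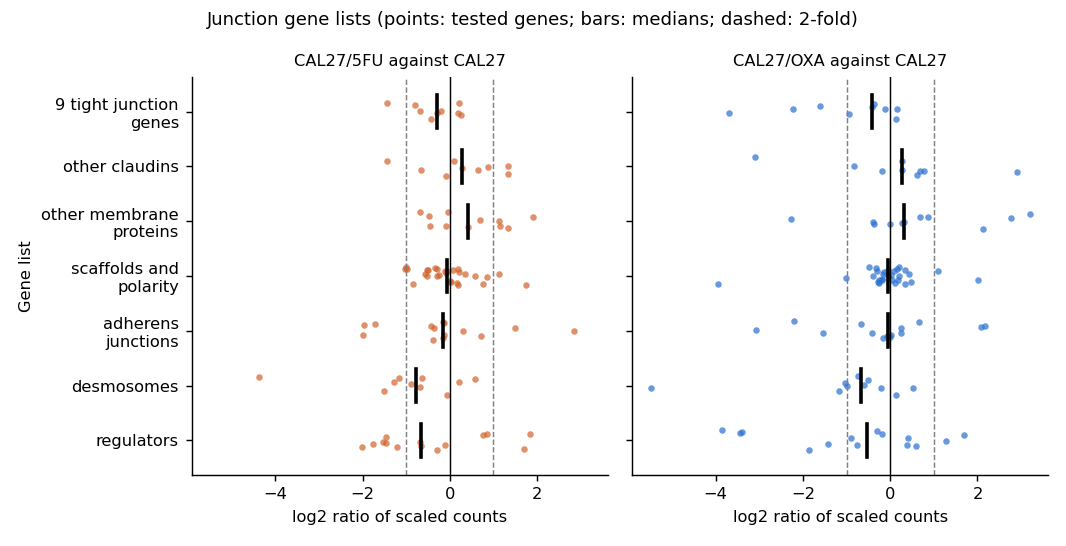
Log2 ratios of scaled counts (horizontal axis) of the tested genes in the 9 tight junction genes and 6 further lists, for CAL27/5FU and CAL27/OXA against CAL27, with 1 point per gene, black bars for medians and dashed lines for 2-fold. The median of the 9 genes is -0.30 and -0.41, that of the desmosome genes -0.78 and -0.67, and the medians of the remaining tight junction lists lie between -0.07 and 0.43.

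Other cell contacts were measured in the same way. Of 10 tested desmosome genes, 4 were lower in CAL27/5FU and 3 in CAL27/OXA, none was higher, and the medians were -0.78 and -0.67. Among all tested genes, 6.72% were lower and 8.46% higher in CAL27/5FU, and 9.28% and 6.54% in CAL27/OXA. PKP1, a plakophilin of stratified epithelium, fell the most, from 10588 counts in CAL27 to 507 in CAL27/5FU and 267 in CAL27/OXA. Of 14 tested adherens junction genes, 2 were higher (CDH2 and NECTIN3) and 3 lower (JUP, NECTIN1 and NECTIN4) in each resistant line, and the medians were -0.15 and -0.05. NECTIN4, which lies among the neighbours of F11R, was at -1.98 in CAL27/5FU and -3.08 in CAL27/OXA. CDH1, which encodes E-cadherin, had 14800, 13459 and 15076 counts, log2 ratios of -0.14 and -0.16.

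The last list held transcription factors known to control epithelial genes. Of 14 tested factors, 2 were higher and 6 lower in CAL27/5FU, and 2 were higher and 5 lower in CAL27/OXA. The shares over all tested genes were 8.46% higher and 6.72% lower in CAL27/5FU, and 6.54% and 9.28% in CAL27/OXA. GRHL2, a grainyhead-like factor known to activate claudin genes in epithelia, had 4659 counts in CAL27, 1686 in CAL27/5FU cells and 1463 in CAL27/OXA, log2 ratios of -1.47 (-1.55 to -1.39) and -1.86 (-1.95 to -1.78). GRHL1 was at -2.02 and -3.39, and GRHL3, with 109 counts or fewer, at -1.76 and -1.42. OVOL1 was at -1.45 and -3.85, OVOL2 at -1.21 and -0.77, and the epithelial factor ELF3 at -1.54 and -3.45.

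Of the factors known as repressors of epithelial genes, ZEB1 rose from 75 counts in CAL27 to 275 in CAL27/5FU and 283 in CAL27/OXA (log2 ratios 1.84 and 1.70), and ZEB2 rose from 62 to 206 and 176 (1.70 and 1.29). SNAI1 had 46, 80 and 42 counts (0.77 and -0.31), SNAI2 1844, 1174 and 2768 counts (-0.66 and 0.40) and TWIST1 205, 372 and 352 counts (0.85 and 0.59), all within 2-fold of CAL27. TWIST2 had 0 counts in every library, which allows up to 3 counts in each. EHF (-0.29 and 0.40), KLF4 (-0.12 and -0.20) and KLF5 (-0.68 and -0.90) were also within 2-fold. With 3 libraries, no relation between a factor and a tight junction gene was computed.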

How the data were processed

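RNA was measured in 1 library each of CAL27, CAL27/5FU and CAL27/OXA cells. The authors deposited unnormalized read counts for 19220 gene symbols and FPKM for 19225. The submitters' processing notes name CASAVA 1.8, HISAT2 2.0.5 and GRCh38, and the counting tool, annotation and strandedness are not given in the sources used here. In each table, 3 other columns, named like a second sample of each line, match no sample label and were not used here, so that the spread within a line was not analysed. Dividing count by FPKM and library total gave 1 gene length across libraries, within 0.1%, for 14367 of 14367 genes with values throughout, so the FPKM values are scaled by total counts alone.

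TMM factors were 0.932 (CAL27), 1.05 (CAL27/5FU) and 1.02 (CAL27/OXA), from edgeR 4.0.16 under R 4.3.3, and log2 CPM had a prior count of 2. The floor of 3 counts corresponded to 0.0770, 0.0766 and 0.0675 CPM. The calculation was tested on simulated data. Positions and neighbours came from GENCODE 29 and promoters from RefSeq. Members and lists were chosen with earlier results of these data known. Named genes were the 9 members, the regulators and, per other list and comparison, up to 6 that averaged 100 counts or more and had the whole interval past 2-fold. Any other gene given with values is a marker or a neighbour, or is stated to have been chosen with its values seen. The exception is CLDN12, which was named for its level. Alternatives were scaling by DESeq2 1.42.0, by total counts or by the upper quartile, other filters, prior counts of 0.5 and 5, FPKM with pseudocounts of 1 and 0.1, and other thresholds. Protein sequences were not analysed here.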

Additional observations from a re-analysis of the deposited data

Results flagged for a closer look

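Both resistant lines were set against the same CAL27 library, and 2 of the 9 tight junction genes had intervals on opposite sides of 0. CLDN1 had a log2 ratio of -0.21 in CAL27/5FU and 0.13 in CAL27/OXA, and OCLN had 0.21 in CAL27/5FU and -0.41 in CAL27/OXA. Under scaling by total counts, CLDN1 was at -0.04 in CAL27/5FU and 0.26 in CAL27/OXA. By the same scaling OCLN was at 0.38 in CAL27/5FU and -0.28 in CAL27/OXA. Each direction rests on 1 library per line, and the difference between the lines was not tested beyond counting error.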

How the results depend on the processing

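The number of the 9 genes past 2-fold was 1 in CAL27/5FU, 3 in CAL27/OXA and 1 between the resistant lines under each alternative of scaling, filter, prior count and unit, and with the whole interval past 2-fold. With a threshold of 1.5-fold it was 3 in CAL27/5FU and 4 in both other comparisons. The share of all tested genes past 1.5-fold was not computed. The counts at 1.5-fold, here and for the 49 genes below, therefore have no background to be set against. The same holds for the counts past 2-fold under other filters, other prior counts and FPKM. No share over all tested genes is given for those settings, so changes in the counts between them cannot be read as particular to these genes. Of the 27 log2 ratios of the 9 genes, MARVELD2 in CAL27/OXA alone changed sign, under total counts and all 3 FPKM settings, and no called gene did. The medians of the 9 genes stayed below 0, at -0.30 to -0.09 in CAL27/5FU and at -0.41 to -0.23 in CAL27/OXA, the highest from FPKM with a pseudocount of 1. Of the 49 other tight junction genes, 11 were past 2-fold in CAL27/5FU, against 17 of 58 without a filter beyond 1 count, 4 of 40 with a mean of at least 50 counts, 7 with a prior count of 5, 1 from FPKM with a pseudocount of 1 (also of the 35 with a minimum mean FPKM of 1), 5 with a pseudocount of 0.1, 2 with the whole interval past 2-fold and 20 at 1.5-fold. In CAL27/OXA the number was 10, against 17 of 58 without the filter, 6 of 40 with a mean of at least 50 counts, 0 from FPKM with a pseudocount of 1 in both forms and 16 at 1.5-fold. Between the resistant lines it was 7, against 3 of 40 with a mean of at least 50 counts, 0 from FPKM with a pseudocount of 1 in both forms, 4 with the whole interval past 2-fold and 14 at 1.5-fold. These zeros are counts past 2-fold with no replicate test. With 3 neighbours on each side, 1 of 27 neighbour medians was past 1.5-fold, against 0 with 5 or 10. Claudin shares from counts in place of FPKM put CLDN4 at 14.1%, 6.38% and 3.49% and CLDN1 at 55.9%, 59.3% and 70.9%. No paired analysis was possible, because a single library per line gives no set of pairs. With 1 library per line, the spread between cultures was not analysed here.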
